A study of Homo sapiens with 6 samples.

Results

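The 10 genes described here encode E-cadherin (CDH1), the catenins of its complex (CTNNA1, CTNNB1, CTNND1 and JUP) and the desmosome proteins DSC2, DSG2, DSP, PKP2 and PKP3. They were taken as every probe set that the platform's gene table assigns to them, which gave 26 of the 54675 probe sets on the array. Of these, 22 carried 1 gene symbol and 4 were assigned jointly to CTNND1 and the read-through gene TMX2-CTNND1. The samples were HCA-7 cells, an established human colorectal cancer line that grows as colonies of different shapes in collagen. The spiky line SC1 and the cystic line CC3, isolated from HCA-7, were each grown in 3D type-1 collagen, and RNA of the cell-containing layer was taken at day 5, 10 and 15. The spiky group thus held 3 arrays (SC1 at day 5, 10 and 15) and the cystic group 3 arrays (CC3 at day 5, 10 and 15), and each RNA sample was read on a single Affymetrix U133 Plus 2.0 chip. No treatment was named for any of the 6 samples. Each shape was represented by 1 isolated line, so colony shape and line cannot be told apart. Nothing states that the days came from separate cultures, and the p-values therefore reflect no more than how far these 6 arrays scatter. With 1 array per line and day, a change of the line difference between days counts as scatter in the comparison of lines. Their small number limits the precision.

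E-cadherin joins neighbouring epithelial cells at adherens junctions. Its tail binds beta-catenin (CTNNB1) or plakoglobin (JUP), which recruit alpha-catenin (CTNNA1) and through it actin, while p120-catenin (CTNND1) holds E-cadherin at the cell surface. In desmosomes the cadherins DSC2 and DSG2, the main desmosomal cadherins of intestinal epithelium, bind plakoglobin and plakophilins (PKP2, PKP3), and desmoplakin (DSP) ties them to keratin filaments. Beta-catenin is also the transcriptional effector of WNT signalling, which is commonly active in colorectal cancer.

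All values are log2 expression after RMA, the array normalization named in the submitters' processing notes, and a difference of 1 is a 2-fold change. Array medians lay between 5.18 and 5.34. The epithelial adhesion gene EPCAM had 11.80, 11.79 and 11.67 in spiky colonies at day 5, 10 and 15, against 11.84, 11.86 and 11.63 in cystic colonies, while 5 of 10 colorectal epithelium markers, KRT20, CDX1, CDX2, CDH17 and GPA33, averaged under 5. The fibroblast markers averaged 4.09 to 4.23 in spiky and 4.06 to 4.29 in cystic arrays, and 8 of 10 of them averaged under 5. The leukocyte markers averaged 4.10 to 4.49 in spiky and 4.59 to 4.96 in cystic arrays, with the pan-leukocyte gene PTPRC averaging 3.07 in spiky and 2.82 in cystic colonies. The actin-bundling gene LCP1, of that list, was lower in spiky colonies by a difference of -1.45 (SE 0.22, adjusted p = 0.00421), as was the microvillus gene VIL1 at -0.68 (adjusted p = 0.0411). The part of these markers in the results was not tested. None of 4 endothelial markers averaged 5 or more. The ACTB 3'-to-5' difference, which grows with RNA degradation, was 2.73, 2.74 and 3.10 in spiky arrays at day 5, 10 and 15, against 2.83, 3.18 and 3.28 in cystic arrays.

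Across spiky and cystic colonies, DSC2 was the 1 gene of the 9 tested whose level differed, and it was lower in spiky colonies. None was higher. The test was limma's moderated test with culture day in the model, on 1 probe set per gene with a mean of at least 5, and p-values were adjusted by Benjamini-Hochberg over all 12317 genes with a threshold of 0.05. CTNND1 was not among these genes, since its probe sets carry 2 symbols. By this test 11.4% of all genes differed (450 higher and 953 lower in spiky colonies, so 67.9% lower, against 643 higher and 803 lower, 55.5% lower, with arrays centred on their medians). Genes lower in spiky colonies made up 7.74% of those tested. The median difference was -0.10 over the 9 genes and -0.030 over all genes. In bulk RNA, fewer cells of a type and less RNA per cell cannot be told apart.

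**Figure D1:**
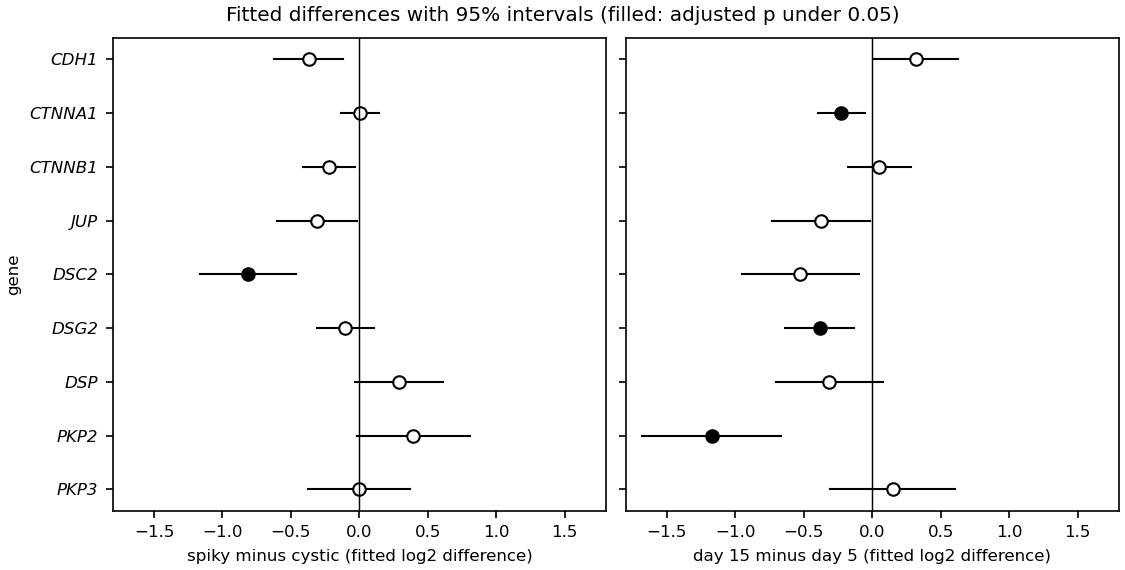
Fitted log2 differences of the 9 tested genes, spiky minus cystic (left) and day 15 minus day 5 (right). Points are limma estimates over 6 arrays, lines are 95% intervals, and filled points passed at an adjusted p of 0.05. On the left DSC2 alone is filled at -0.81, and on the right CTNNA1, DSG2 and PKP2 are filled, all left of 0.

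Values were also tested for every probe set with a mean of at least 5. Of 19 single-symbol probe sets tested for these genes, 2 were lower in spiky colonies and 0 were higher, DSC2 226817_at and CTNNB1 1554411_at. In this fit 9.16% of 29468 probe sets differed and 6.01% were lower (926 higher and 1772 lower, 65.7% lower, against 1342 and 1515, 53.0% lower, with centred arrays). None of the 4 joint CTNND1 probe sets passed.

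CDH1, the E-cadherin gene, had 9.88, 9.90 and 10.47 in spiky colonies at day 5, 10 and 15, against 10.51, 10.31 and 10.55 in cystic colonies on its brightest probe set, 201131_s_at. Spiky day 5 and day 10 lay under every cystic array, while spiky day 15 lay between them, so the groups overlapped. The means were 10.08 ± 0.34 in spiky and 10.45 ± 0.13 in cystic colonies (SD over the 3 days, n = 3). The spiky minus cystic difference was -0.62, -0.41 and -0.074 at day 5, 10 and 15, and its fitted value of -0.37 (SE 0.11, a 1.29-fold difference) had an adjusted p of 0.0653. CDH1 therefore did not pass. Leaving out either day 15 array gave -0.52 with an adjusted p of 0.00131 without cystic day 15 and 0.00105 without spiky day 15. With culture day in the model, leaving out either array of a day gives the same line difference, so these are not separate checks. The difference was -0.24 without cystic day 5 (adjusted p = 0.404) or spiky day 5 (0.391). It was -0.35 without cystic day 10 (0.242) or spiky day 10 (0.247), and with culture day left out the adjusted p was 0.602. CDH1 passed in 2 of 15 alternatives. A second probe set, 201130_s_at, had 6.91, 6.67 and 7.58 in spiky colonies, against 7.45, 7.31 and 7.54 in cystic colonies, with differences of -0.54, -0.64 and 0.041 and an adjusted p of 0.244. Both probe sets had spiky day 5 and day 10 lowest among the 6 arrays.

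**Figure D2:**
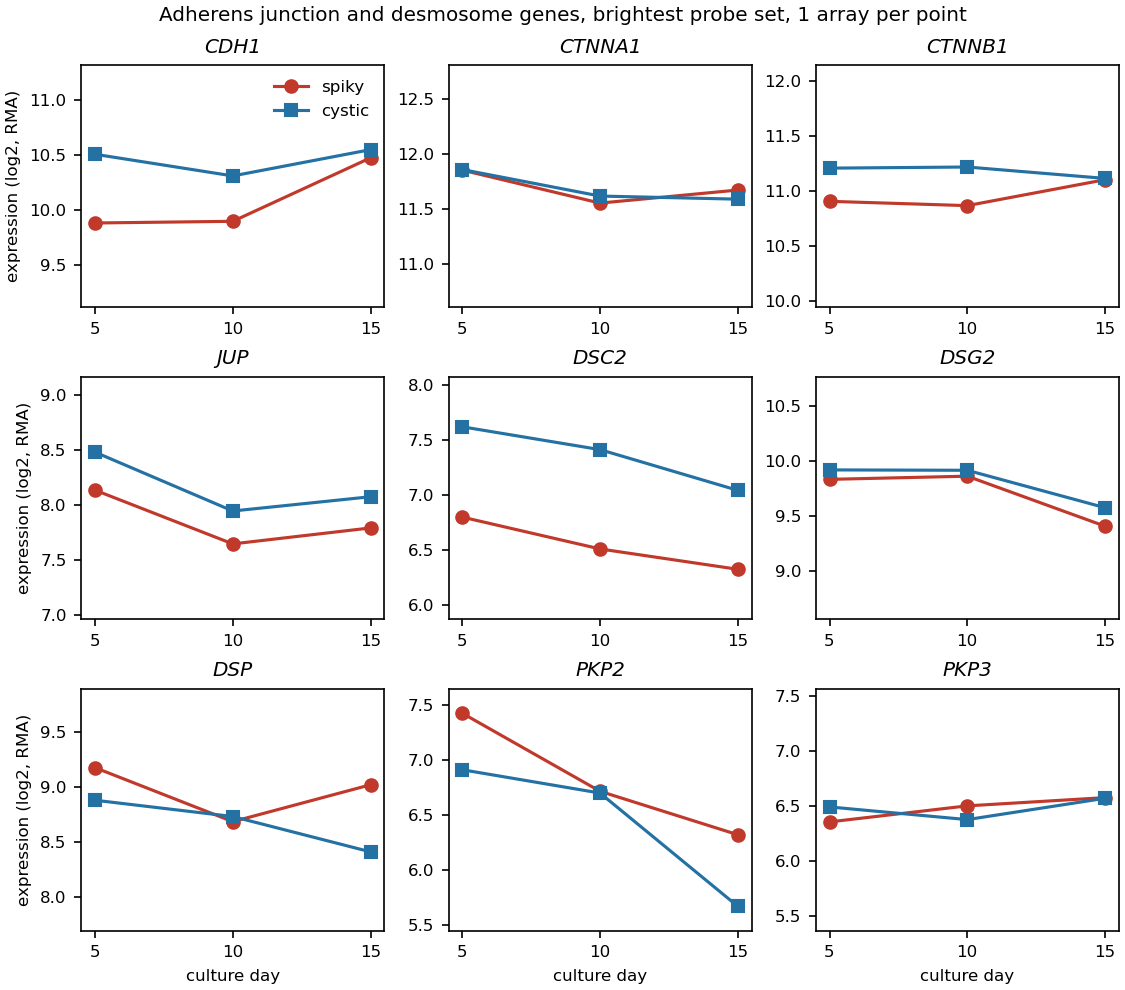
Log2 expression of 9 genes at culture day 5, 10 and 15 (1 array per point, red circles spiky, blue squares cystic, panels of equal height). The DSC2 lines stay apart, 6.32 to 6.80 in spiky against 7.04 to 7.62 in cystic colonies, the CDH1 lines meet at day 15, and both PKP2 lines run down.

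Beta-catenin, CTNNB1, had 10.90, 10.86 and 11.10 in spiky colonies at day 5, 10 and 15, against 11.20, 11.21 and 11.11 in cystic colonies on its brightest probe set, 201533_at. Every spiky array lay under every cystic array, by as little as 0.012 at day 15. The fitted difference was -0.22 (SE 0.08) and did not pass (adjusted p = 0.136). Without the cystic day 15 array it was -0.33 with an adjusted p of 0.00563, and without the spiky day 15 array -0.33 with 0.00492. It was -0.18 without cystic day 5 (0.493) or spiky day 5 (0.488), and -0.16 without cystic day 10 (0.595) or spiky day 10 (0.589). With culture day left out the adjusted p was 0.609, and this probe set passed in 2 of 16 alternatives. On probe set 1554411_at the values were 8.44, 8.97 and 9.01 in spiky colonies, against 9.41, 9.39 and 9.38 in cystic colonies. Again the groups did not overlap. The difference was -0.59 (SE 0.14, 1.5-fold lower in spiky colonies, adjusted p = 0.0239), and it was -0.97, -0.42 and -0.38 at day 5, 10 and 15. It was no longer past the threshold without cystic day 5 (-0.40, adjusted p = 0.202), spiky day 5 (-0.40, 0.184) or spiky day 10 (-0.67, 0.0549), nor with no filter on dim probe sets (0.0517), without the intensity trend in the prior (0.126) or with culture day left out (0.346). It passed in 8 of 14 alternatives. The spread on that probe set was 0.32 (SD) in spiky arrays, against 0.014 in cystic arrays. The third probe set, 223679_at, had 6.30, 6.62 and 7.51 in spiky colonies, against 6.77, 7.24 and 7.45 in cystic colonies, with a difference of -0.34 (adjusted p = 0.313).

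Alpha-catenin, CTNNA1, had 11.85, 11.55 and 11.67 in spiky colonies at day 5, 10 and 15, against 11.86, 11.61 and 11.59 in cystic colonies on 210844_x_at, whose suffix marks probes that may match other transcripts. The arrays of both lines interleaved. The difference was 0.0045 (SE 0.06, 95% interval -0.13 to 0.14). Its other probe sets of at least 5, 200765_x_at, 200764_s_at and 1558214_s_at, had differences of -0.0015, 0.089 and 0.10, and 215883_at averaged 4.72 in spiky and 4.43 in cystic colonies, under the level tested. For p120-catenin, all 4 probe sets are shared with TMX2-CTNND1, so their values may hold both transcripts. Their fitted differences were 0.0055 (208407_s_at), -0.18 (211240_x_at), -0.17 (208862_s_at) and -0.065 (1557944_s_at), with adjusted p from 0.434 to 0.989. Probe set 208862_s_at had 8.65, 8.69 and 8.77 in spiky colonies, against 8.94, 8.88 and 8.81 in cystic colonies, with every spiky array under every cystic one. On 208407_s_at the values were 8.86, 8.72 and 9.62 in spiky colonies, against 8.99, 9.04 and 9.15 in cystic colonies, and spiky day 15 stood above the other 5 arrays.

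Plakoglobin, JUP, which serves both junction types, had 8.13, 7.64 and 7.79 in spiky colonies at day 5, 10 and 15, against 8.48, 7.94 and 8.07 in cystic colonies. At each day the spiky array was under the cystic array, with differences of -0.35, -0.30 and -0.28, but the groups overlapped across days, with both lines highest at day 5. The fitted difference was -0.31 (SE 0.13) and did not pass (adjusted p = 0.176).

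Desmocollin 2, DSC2, had 6.80, 6.51 and 6.32 in spiky colonies at day 5, 10 and 15, against 7.62, 7.41 and 7.04 in cystic colonies on 226817_at. The highest spiky array was under the lowest cystic array, and the groups did not overlap. Means were 6.54 ± 0.24 in spiky and 7.36 ± 0.29 in cystic colonies (SD over the 3 days, n = 3). The difference was -0.81 (SE 0.15, 95% interval -1.16 to -0.46, 1.76-fold lower, adjusted p = 0.0109), and it was negative on each day, at -0.82, -0.90 and -0.72. Leaving out any day 5 or day 10 array raised the adjusted p over the threshold. It was 0.0803 without cystic day 5, 0.0600 without cystic day 10, 0.0723 without spiky day 5 and 0.0648 without spiky day 10. Either array of a day gave the same difference, -0.81 for day 5 and -0.77 for day 10, so the arrays of 1 day are not separate checks. With any 1 array left out the difference stayed between -0.86 and -0.77. With culture day left out of the model the adjusted p was 0.221, and with the mean of the gene's probe sets the difference was -0.53 (adjusted p = 0.0735).

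DSC2 has 3 other probe sets. On 204751_x_at the values were 5.43, 5.16 and 5.69 in spiky colonies, against 6.08, 5.88 and 5.85 in cystic colonies, without overlap, and the difference of -0.51 had an adjusted p of 0.166. On 204750_s_at the values were 4.60, 4.28 and 4.28 in spiky colonies, against 5.52, 5.37 and 4.88 in cystic colonies. The groups did not overlap there either, and the mean was under the level tested. With that level set at 4, this probe set passed as lower in spiky colonies, but with no filter it did not pass. Probe set 231033_at, whose spiky arrays averaged 3.03 and cystic arrays 2.95, overlapped. Of the genes tested, CTNNB1 and DSC2 were the 2 whose spiky arrays all lay under all cystic arrays, and 0 lay above. Over all genes 15.6% did not overlap in either direction. That share was not computed over all probe sets, nor for spiky under cystic alone.

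**Figure D3:**
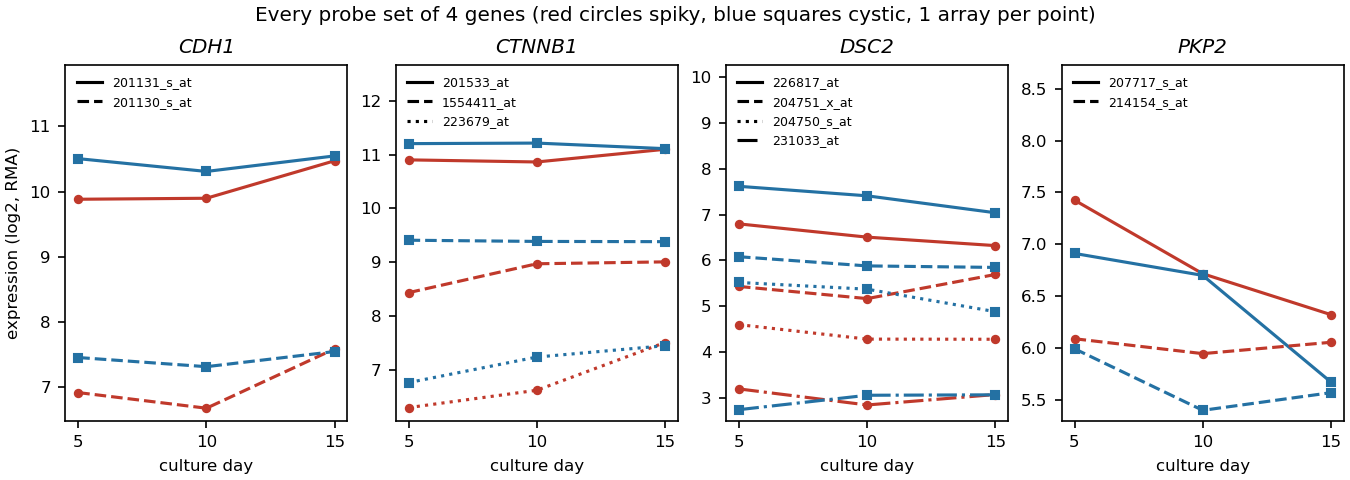
Log2 expression on every probe set of CDH1, CTNNB1, DSC2 and PKP2 by culture day (1 array per point, red circles spiky, blue squares cystic, line styles mark probe sets). Levels of different probe sets are not comparable, so the gap between colours is what is read. At day 15 spiky minus cystic was -0.72 on DSC2 226817_at, -0.60 on 204750_s_at, -0.15 on 204751_x_at and -0.38 on CTNNB1 1554411_at. It was 0.65 and 0.49 on the PKP2 probe sets, and between -0.074 and 0.059 on both CDH1 probe sets, CTNNB1 201533_at and 223679_at, and DSC2 231033_at.

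The DSC2 and DSG2 promoters are shown because DSC2 was the gene that differed and DSG2 is next to it among the tested genes of chromosome 18. They are the 250 bases before each annotated start in RefSeq (GRCh38.p14), and 6 of the 10 genes matched with 11 promoters. CDH1, CTNND1, PKP2 and PKP3 had no promoter matched. Some of the 11 belong to the same gene, with overlapping windows for CTNNA1, so they are not separate units. Capitals mark CACCTG, or CAGGTG on the other strand, the E-box that the SNAI and ZEB repressors of CDH1 bind.
DSC2, first start, chr18:31102422-31102671, minus strand: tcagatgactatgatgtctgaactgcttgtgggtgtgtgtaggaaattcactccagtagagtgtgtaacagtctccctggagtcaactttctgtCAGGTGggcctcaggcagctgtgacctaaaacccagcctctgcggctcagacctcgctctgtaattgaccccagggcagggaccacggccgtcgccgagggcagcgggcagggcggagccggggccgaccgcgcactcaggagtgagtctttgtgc
DSC2, second start, chr18:31101261-31101510, minus strand: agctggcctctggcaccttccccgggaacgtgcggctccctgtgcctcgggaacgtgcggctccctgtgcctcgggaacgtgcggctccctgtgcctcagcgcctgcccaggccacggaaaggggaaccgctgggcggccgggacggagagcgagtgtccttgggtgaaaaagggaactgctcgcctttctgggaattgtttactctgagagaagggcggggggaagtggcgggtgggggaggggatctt
DSG2, chr18:31497927-31498176, plus strand: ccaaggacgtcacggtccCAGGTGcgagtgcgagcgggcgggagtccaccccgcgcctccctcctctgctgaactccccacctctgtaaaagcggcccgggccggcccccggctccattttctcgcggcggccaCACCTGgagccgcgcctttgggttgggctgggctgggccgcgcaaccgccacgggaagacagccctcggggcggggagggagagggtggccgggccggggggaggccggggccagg
The motif begins 156 bases before the first DSC2 start and 232 and 116 bases before the DSG2 start. It is in 4 of 11 promoters of these genes (36.4%) and in 6143 of all 35116 promoters (17.5%), and a match is a description of the letters, not a binding site. Among the repressors themselves, 9 of 10 averaged under 5. SNAI1 averaged 4.97 in spiky and 4.67 in cystic colonies and ZEB1 4.64 and 4.71. TCF3, the 1 tested, had a difference of 0.098 (adjusted p = 0.223).

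Desmoglein 2, DSG2, sits beside DSC2 among tested genes of chromosome 18, and had 9.83, 9.86 and 9.41 in spiky colonies at day 5, 10 and 15, against 9.92, 9.92 and 9.58 in cystic colonies on 1553105_s_at. The groups overlapped, and the difference was -0.10 (95% interval -0.31 to 0.10, adjusted p = 0.559). Probe set 217901_at had 9.71, 9.46 and 9.24 in spiky colonies, against 9.88, 9.79 and 9.29 in cystic colonies and a difference of -0.18. Among the 10 tested genes around DSC2, 5 on each side, differences ran from -0.19 to 1.29 with a median of 0.0096. Of these, B4GALT6, a galactosyltransferase gene, was higher in spiky colonies at 1.29 (adjusted p = 0.00300), OSBPL1A at 0.46 (adjusted p = 0.0278), and 0 were lower. The 165 tested genes of chromosome 18 had a median of 0.074, and DSC2 ranked 2nd from the lowest.

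Desmoplakin, DSP, had 9.17, 8.68 and 9.02 in spiky colonies at day 5, 10 and 15, against 8.88, 8.73 and 8.41 in cystic colonies. Its spiky value was higher at day 5 and day 15 and lower at day 10, and the difference of 0.29 did not pass (adjusted p = 0.259). Plakophilin 2, PKP2, had 7.43, 6.72 and 6.32 in spiky colonies, against 6.91, 6.70 and 5.67 in cystic colonies on 207717_s_at, with a difference of 0.39 (SE 0.18, adjusted p = 0.227). Its other probe set, 214154_s_at, had 6.09, 5.95 and 6.06 in spiky colonies, against 5.99, 5.40 and 5.57 in cystic colonies, a difference of 0.38 (adjusted p = 0.290). Both were positive and neither passed. Plakophilin 3, PKP3, had 6.36, 6.50 and 6.58 in spiky colonies, against 6.49, 6.38 and 6.57 in cystic colonies on 209873_s_at, a difference of -0.0017 (95% interval -0.37 to 0.37). Probe set 209872_s_at had 5.89, 5.69 and 5.08 in spiky colonies, against 5.57, 5.52 and 6.08 in cystic colonies, and at day 15 the spiky array was under every other array, after spiky minus cystic differences of 0.33 and 0.17 at day 5 and day 10.

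Between day 15 and day 5, CTNNA1, DSG2 and PKP2 fell among the 9 genes tested and none rose. Their sizes ran from 1.17-fold for CTNNA1 to 2.25-fold for PKP2. Over all genes 32.3% differed and 21.9% were lower at day 15 (1287 higher and 2695 lower, 67.7% lower, against 1680 higher and 2059 lower, 55.1% lower, after cyclic loess between arrays). The median was -0.31 over the 9 genes and -0.11 over all genes. The ACTB 3'-to-5' difference was also greater at day 15 than at day 5 in both lines. The GAPDH 3'-to-5' difference ran the other way, at 0.49 at day 15 and 0.60 at day 5 in spiky arrays, and 0.63 and 0.65 in cystic arrays. The part of RNA quality in these results was not tested.

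PKP2 was at -1.17 (SE 0.22, 2.25-fold lower at day 15, adjusted p = 0.00503), with 6.32 at day 15 and 7.43 at day 5 in spiky colonies, and 5.67 and 6.91 in cystic colonies. Without the spiky day 5 array its adjusted p was 0.0777. Its second probe set was at -0.23 (adjusted p = 0.511). DSG2 was at -0.38 (SE 0.11, 1.31-fold lower, adjusted p = 0.0286), and 217901_at at -0.52 (adjusted p = 0.0112). The DSG2 call was lost without cystic day 5 (adjusted p = 0.145), cystic day 10 (0.0727), spiky day 5 (0.205), spiky day 10 (0.0739) or spiky day 15 (0.0598), and after loess (-0.24, 0.143) or repeated quantile normalization (-0.28, 0.0858). Without the intensity trend in the prior the DSG2 value did not pass either (adjusted p = 0.0866). It passed in 7 of 15 alternatives.

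CTNNA1 was at -0.23 (SE 0.08, 1.17-fold lower, adjusted p = 0.0481), and 200765_x_at at -0.29 (adjusted p = 0.0213). The other tested CTNNA1 probe sets did not pass, with 200764_s_at at -0.33 (adjusted p = 0.0589) and 1558214_s_at at -0.11 (0.615), and the mean of the probe sets was at -0.098 (0.533). The CTNNA1 call passed in 3 of 14 alternatives, which were centred arrays, the robust prior and leaving out spiky day 15. It was lost without cystic day 5 (0.233), cystic day 10 (0.0977), cystic day 15 (0.131), spiky day 5 (0.245) or spiky day 10 (0.101), and after loess at -0.071 (adjusted p = 0.507) or quantile normalization at -0.14 (0.170). CDH1 was higher at day 15 by 0.32 (adjusted p = 0.104), and it passed after loess at 0.47 (0.0288) and quantile normalization at 0.41 (0.0499), and without cystic day 15 at 0.54 (0.00327). DSP, at -0.31 (adjusted p = 0.205), passed without spiky day 15 at -0.55 (0.0277). DSC2 was at -0.53 (adjusted p = 0.0618) and JUP at -0.37 (0.101), and neither passed. DSC2 passed with centred arrays (0.0288) and without the intensity trend in the prior (0.0433), and JUP with centred arrays (0.0426). The CTNNB1 probe set 223679_at rose by 0.95 (SE 0.22, adjusted p = 0.0109), while the brightest CTNNB1 probe set was at 0.052. Among the 19 probe sets 1 rose and 5 fell, against 29.6% of all probe sets called.

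Across the shorter steps, 0 of the 9 genes passed between day 10 and day 5, where 0.0162% of all genes did, with 2 at an unadjusted p under 0.05, CTNNA1 and JUP. JUP was at -0.51 (adjusted p = 0.264). Between day 15 and day 10, DSG2 (-0.40, adjusted p = 0.0337) and PKP2 (-0.71, adjusted p = 0.0498) fell, against 22.6% of all genes called. In the fit over all probe sets the PKP2 value had an adjusted p of 0.0573 and did not pass.

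Spiky was under cystic on 14 of 19 probe sets at day 5, on 13 at day 10 and on 9 at day 15, with median differences of -0.14, -0.064 and 0.0060. These 19 include several probe sets of 1 gene, such as 4 of CTNNA1 and 3 of CTNNB1. The share over all probe sets was not computed by day. Whole-array medians at day 5, 10 and 15 were 5.23, 5.18 and 5.29 in spiky, against 5.23, 5.29 and 5.34 in cystic arrays. No narrowing passed a test. The limma test of whether the change over 10 days differed between the lines called 0 of the 9 genes, and 0% of all genes passed (309 had an unadjusted p under 0.05). The CDH1 slope difference was 0.55 per 10 days (95% interval -0.25 to 1.35, adjusted p = 0.999).

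**Figure D4:**
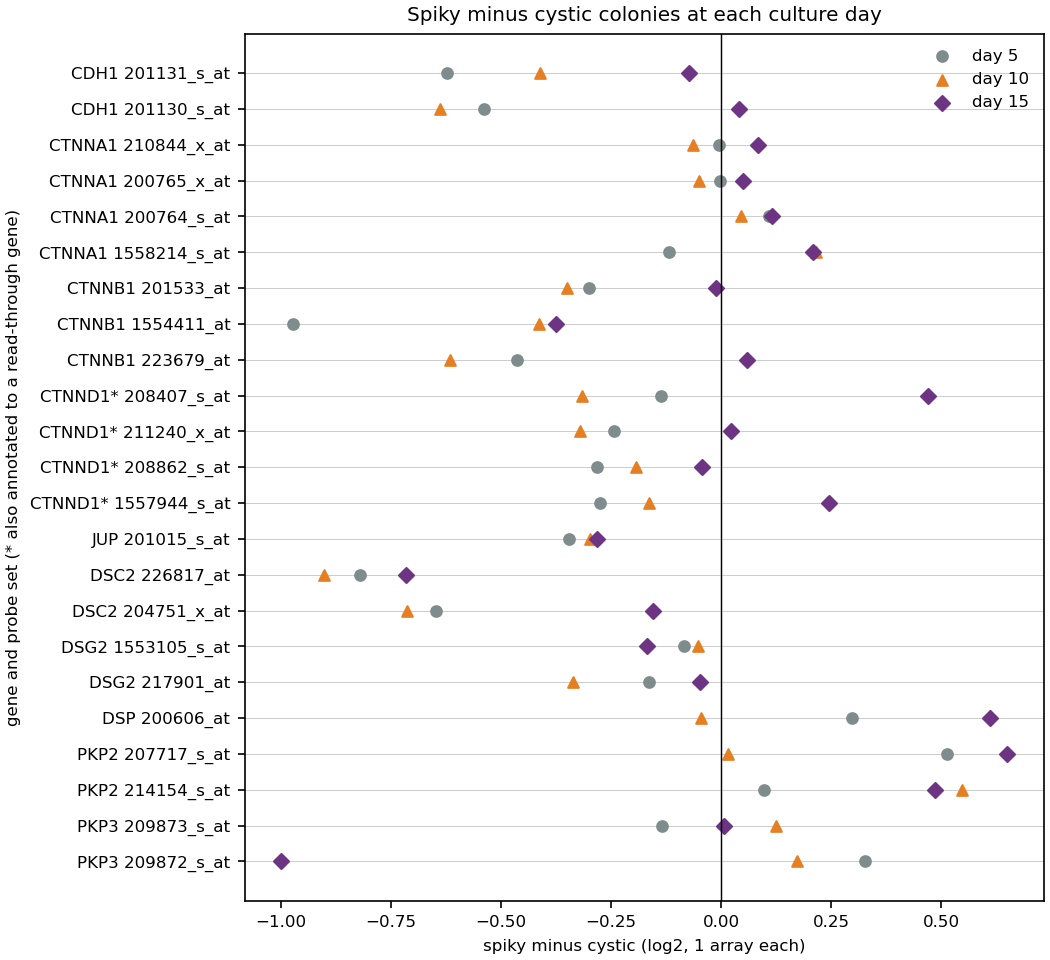
Spiky minus cystic log2 difference at day 5, 10 and 15 on 23 tested probe sets (1 array of each line per point, asterisks mark probe sets shared with TMX2-CTNND1). Left of 0 on every day lie CDH1 201131_s_at, CTNNB1 201533_at and 1554411_at, CTNND1 208862_s_at, JUP, DSC2 226817_at and 204751_x_at, and both DSG2 probe sets. CDH1 201130_s_at lies left of 0 at day 5 and day 10 only. CTNNA1 200764_s_at and both PKP2 probe sets lie right of 0 on every day.

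The same comparison of the lines was made for lists of other junction genes, beside the 11.4% of all genes that differed. Of 5 other cadherins and catenins tested 1 rose in spiky colonies and 0 fell, PKP4, a p120-family catenin, at 0.48 (adjusted p = 0.0128). It had 10.95, 10.64 and 10.97 in spiky colonies at day 5, 10 and 15, against 10.37, 10.41 and 10.36 in cystic colonies, without overlap. The median was 0.039. N-cadherin, CDH2, averaged 4.32 in spiky and 4.57 in cystic colonies, under the level tested. In the nectin, afadin and actin linker list 0 rose and 1 of 13 fell, ACTN1, an actin crosslinker, at -0.47 (adjusted p = 0.0211), with a median of -0.16. Of 7 other desmosome and keratin genes 0 rose and 1 fell, PERP, a desmosome membrane protein, at -0.24 (adjusted p = 0.0285). DSC1, DSC3, DSG1, DSG3 and DSG4 averaged under 5 in both lines. Of 12 genes of cadherin trafficking and shedding 0 rose and 1 fell, MGAT3, a glycosyltransferase that modifies E-cadherin, at -0.81 (adjusted p = 0.0495). None of 9 genes of the beta-catenin destruction complex passed, and the smallest adjusted p was 0.303. AXIN1, its scaffold, was at 0.25 and the kinase gene GSK3A at 0.18.

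The same lists were compared between day 15 and day 5, where 32.3% of all genes differed and 21.9% were lower. AFDN, which encodes the nectin binder afadin, rose by 0.57 (adjusted p = 0.00462), and NECTIN4 by 1.22 (0.0430). VEZT, an adherens junction membrane protein, fell at -0.61 (0.00808), so that 2 of 13 linkers rose and 1 fell. The keratins KRT18 and KRT8 fell at -0.66 (0.00106) and -0.48 (0.0412), 2 of 7 in their list. ADAM10, the protease that sheds E-cadherin, rose by 0.51 (0.0134), and EGFR fell at -0.76 (0.00764), among 12 trafficking genes. BTRC, of the ubiquitin ligase that marks beta-catenin, rose by 0.51 (0.0379), 1 of 9. Of the 5 other cadherins and catenins 0 passed, with ARVCF at 0.53 (0.0507) and CTNNAL1 at -0.40 (0.0919), and TCF3 among the repressors was at 0.024. COL1A1, of the fibroblast list, rose by 1.38 (0.00203).

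Likeness of pattern was measured by Pearson correlation of log2 values across the 6 arrays, which share 2 lines and 3 days. The genes nearest to CDH1 were HLA-DMA (0.992), TRIM29 (0.992), ATF6 (0.992), SUFU (0.990) and NEURL1B (0.989). Those nearest to DSC2 were COX5A (0.997), PTPN9 (0.997), NIPSNAP3A (0.994), NDUFV3 (0.994) and SUMO3 (0.994). Among the genes themselves CDH1 and CTNNB1 correlated at 0.86, JUP with CTNNA1 at 0.78 and with DSC2 at 0.77, DSP with PKP2 at 0.77, and PKP2 with PKP3 at -0.78, each over 6 arrays and given as a description.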

How the data were processed

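Gene expression was measured in 6 HCA-7 samples, 3 spiky and 3 cystic, with 1 array each. The deposited values are log2 expression made by the authors with RMA, per the submitters' processing notes, and the RMA version is not given in the sources used. The array medians lay between 5.18 and 5.34, and 0 values were missing.

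The platform annotation supplied gene symbols, which were brought up to date through gene IDs in RefSeq (GRCh38.p14). Of 54675 probe sets 41097 had 1 symbol, 1801 several and 11777 none, and 41043 matched RefSeq. For each gene the brightest of its single-symbol probe sets was used, provided its mean reached 5, leaving 12317 of 19775 genes. limma 3.58.1 (R 4.3.3) was fitted with culture day and line as terms and a variance prior that follows intensity (2 residual degrees of freedom), with two-sided tests adjusted by Benjamini-Hochberg at a threshold of 0.05. Every probe set with a mean of at least 5 (29468, 56 of them control probe sets) was fitted likewise, and a second model took day as a number, per 10 days, with its interaction. The procedure was tested on simulated data with independent errors and fewer changed genes than were called between the lines. Its outcome is not reported, and no result rests on it.

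The genes and lists were chosen with earlier results of these data known. From each list of other junction genes, those that passed were named, at most the 4 with the smallest p, and where none passed, the 2 with the largest absolute difference among those tested. CDH2, SNAI1 and ZEB1 were named in addition, after their values were seen. DSC1, DSC3, DSG1, DSG3 and DSG4 were also named outside this rule, as list members under the level tested. Likeness and neighbour genes followed fixed numbers, 5 nearest and 5 on each side. Same-day arrays of both lines deviated together from their group means (r = 0.608, 0.496 and 0.719 at day 5, 10 and 15), against -0.65 to 0.29 between different days, and day is a term of the model. Deviations of a gene cancel out within each line, so positive same-day values by themselves pull the different-day values down. The contrast is therefore partly fixed in advance. Filters, probe set choice, array scaling, the variance prior, the day term and each array left out were varied.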

Additional observations from a re-analysis of the deposited data

Results flagged for a closer look

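On 4 probe sets both later days lay on opposite sides of day 5 in the lines. Between day 15 and day 5, CTNNA1 1558214_s_at moved by 0.055 in spiky and -0.27 in cystic colonies, and CTNNB1 1554411_at by 0.57 in spiky and -0.027 in cystic colonies. The 2 probe sets shared by CTNND1 and TMX2-CTNND1 moved by 0.11 in spiky and -0.13 in cystic colonies (208862_s_at) and by 0.33 in spiky and -0.19 in cystic colonies (1557944_s_at). Each value compares 1 array with 1 array. The slope difference was tested by limma and none of the 4 passed (adjusted p = 0.9998 for each, unadjusted p from 0.130 to 0.499). The same opposite pattern was on 17.4% of the 23 tested probe sets of these genes and on 8.55% of all 29468 tested.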

How the results depend on the processing

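Counts over all genes depended on the model. Between spiky and cystic colonies 1403 genes and 2698 probe sets differed, against 691 and 990 without the intensity trend in the prior, and 72 and 110 with no replicate block (culture day, which pairs the arrays of both lines, left out). Leaving out 1 array gave 529 to 2169 genes and 1257 to 4117 probe sets. Of the junction genes 1 differed, against 0 with the mean of a gene's probe sets, 0 with no replicate block and 0 to 3 with 1 array left out. Of their probe sets 2 differed, against 3 with the filter at a mean of 4, which added DSC2 204750_s_at. The count was 1 unfiltered, 1 without the intensity trend, 0 with no replicate block and 0 to 5 with 1 array left out. Between day 15 and day 5, 3982 genes differed, 957 to 4302 with 1 array left out (957 without spiky day 5). For junction genes that count was 3, against 1 with plain _at probe sets, where 4 were tested, 5 with centred arrays, which add DSC2 and JUP, and 0 to 3 with 1 array left out. The slope count of 0 became 0 to 17 with 1 array left out. Some small differences changed sign. PKP3, spiky minus cystic, was at 0.053 with centred arrays, 0.047 after loess, 0.057 after quantile normalization and -0.065 to 0.065 with 1 array left out. CTNNA1 was at -0.0090 after loess, -0.029 after quantile normalization and -0.035 to 0.039 with 1 array left out. CTNNB1, day 15 minus day 5, was at -0.033 with centred arrays and -0.11 to 0.21 with 1 array left out. The cause of these shifts was not tested. DSC2 was lower in spiky colonies in all 16 alternatives and passed in 10. PKP2, day 15 against day 5, passed in 13 of 14. With 1 array per line and day, small differences could not be resolved.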
